A study of Arabidopsis thaliana with 18 samples.

Results

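The transcripts described here were lower in wild-type *Arabidopsis thaliana* rosette leaves 60 min after a change of light, while the same transcripts in the *stn7* mutant had a 60 min mean close to, or above, their 0 min mean. They were chosen from group means of log2 values. A probe set was taken where the 60 min mean minus the 0 min mean was at or below -0.8 in the wild type (WT) and above -0.3 in *stn7*. Of 22746 probe sets, 680 met the WT threshold and 221 met both. Of these, 8 were left out by the same rule: 4 for organelle-encoded genes (cox2 and 3 probe sets of nad1), 2 for the genes SPT and SWEET16, 1 for the expansin gene EXPA9 and 1 for the autophagy gene ATG8B. AT5G66930, whose symbol is its locus name but which has the synonym ATG101, was not left out, because the rule goes by the symbol. The remaining 213 are the members. The gene table supplied for the array gave 1 gene for 148 of them, several genes for 4 and no entry for 61, and the last were counted and tested but given no gene name. For 137 of the 148 genes the annotation carries only a locus name. Whether a probe set without an entry measures an organelle transcript could not be checked.

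The groups were *stn7* and WT plants, each at 0, 30 and 60 min, with 3 arrays per group and 18 arrays in all. *stn7* is a single insertion line (SALK_073254) in the Col-0 background that lacks the kinase STN7, and WT is Col-0. All plants were grown on soil for 20 days (35 µE of continuous white light, 22 °C, 60% humidity) and then kept for 3 days in light favouring photosystem I (PSI light), so all groups share that history, and they were 23 days old. At 0 min they were taken in PSI light, and at 30 and 60 min after the shift to light favouring photosystem II (PSII light). Each sample was a pool of at least 250 plants, and the labels call the 3 samples of a group biological replicates. At 30 and 60 min there were no plants kept in PSI light, so the light and the time of harvest cannot be told apart within a genotype. Whole rosettes hold many cell types, and fewer cells of a type cannot be told apart from less RNA per cell.

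Light that favours photosystem II reduces the plastoquinone pool between the photosystems, and light that favours photosystem I oxidises it. STN7 is a thylakoid kinase that is active when plastoquinone is reduced. It phosphorylates light-harvesting proteins in the short term (state transitions) and is needed for the long-term change in photosystem amounts, part of which runs through altered gene expression in the chloroplast and the nucleus. The submitters chose the mutant as a control blind to redox signals from plastoquinone, and the comparison asks how transcripts lower in WT after the shift behaved in such plants.

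The arrays of a group correlated at 0.9896 to 0.9967, and array medians lay between 6.1 and 6.31. The WT medians were 6.24 to 6.27 at 60 min and 6.1 to 6.17 at 0 min, so setting all medians equal moves every WT change downward. Of the mesophyll markers 3 of 7 were measured, RCA and both LHCB4.1 and LHCB4.2, at group means of 12.6 to 13.27 on the log2 scale. Of 9 root markers 2 were measured, at 3.49 to 4.29, near the lowest values on the arrays (2.53). Of 4 guard cell markers 2 were measured. In *stn7* at 30 min the marker FMA was 0.59 higher than in WT and AT1G22690 differed by -0.54, so these moved in opposite directions, and their part in the results was not tested. None of the 4 vascular, 2 cell division, 5 flower and 3 seed markers had a named probe set. STN7 itself had no named probe set, and the targeted transcript is not analysed here.

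The rule used 12 arrays, those at 0 and 60 min. Differences that involve them are therefore given as a description, with the standard error (SE) of the limma fit and no p. The 30 min arrays had no part in the choice, and the comparison of *stn7* with WT at 30 min is the test reported. Changes and differences are on the log2 scale, where 1 is a 2-fold change.

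Over the members the median change at 60 min was -0.09 in *stn7*, with a range of -0.3 to 0.76, and -0.92 in WT, with a range of -1.78 to -0.8. The median over all probe sets was 0.01 in *stn7* and -0.05 in WT. In *stn7* the change lay within 0.3 of zero for 201 members and was at or above 0.3 for the other 12, and 138 members had a *stn7* mean lower at 60 min than at 0 min. All 3 WT arrays at 60 min lay below all 3 WT arrays at 0 min for 211 members. Over all probe sets that share was 24.3%, and nothing is read from the members' count because the rule fixed it. Members next to the WT threshold differed little from probe sets beyond it. AT2G35450, AT1G44830 and AT2G16595 were just inside at -0.802, -0.801 and -0.801, and AT1G65500, AT2G07707 and AT2G46580 just outside at -0.799, -0.797 and -0.796. On the *stn7* side AT2G29995, AT1G33080 and AT3G20680 were just inside, each at -0.298, and AT3G48550, AT1G09520 and FOLB1 just outside at -0.302, -0.31 and -0.317.

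**Figure D1:**
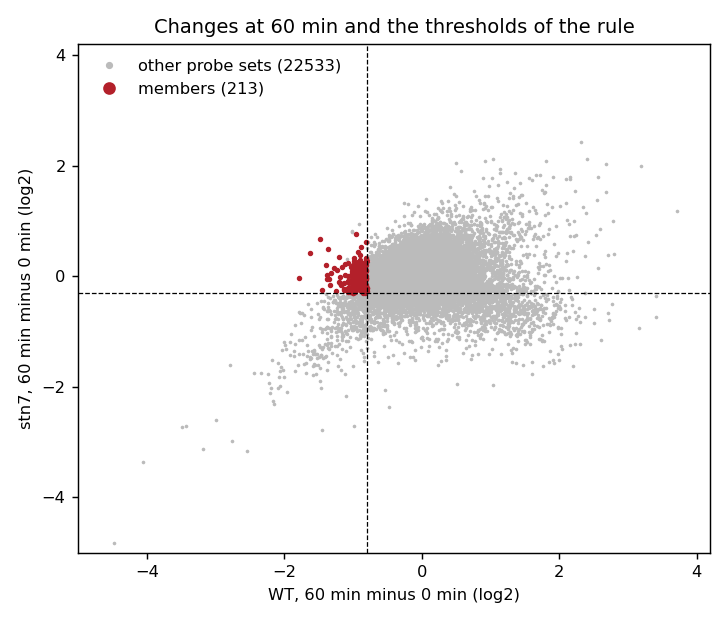
Change from 0 to 60 min in WT (x axis) and in *stn7* (y axis), both on the log2 scale, for each of 22746 probe sets; the dashed lines are the thresholds of -0.8 and -0.3. The 213 members are the red points, which continue the edge of the main cloud of probe sets without a gap.

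The largest WT change was that of AT5G40020, which encodes a protein of the thaumatin family, to which several secreted defence proteins belong. Its values were 6.89, 6.84 and 7.59 in *stn7* at 0 min, 7.0, 7.44 and 7.12 at 30 min and 7.63, 6.96 and 6.64 at 60 min. In WT they were 8.15, 7.78 and 7.88 at 0 min, 6.96, 7.03 and 6.87 at 30 min and 5.86, 6.18 and 6.41 at 60 min. The WT groups did not overlap with each other, whereas the *stn7* groups overlapped at all times, and *stn7* started below every WT array. The change at 60 min was -0.03 ± 0.22 in *stn7* and -1.78 ± 0.22 in WT (SE, n = 3 each).

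Other members belong to families with secreted or defence roles. THI2.1, a thionin, a small antimicrobial peptide known for its induction by jasmonate, had values of 4.31, 4.71 and 6.88 in *stn7* at 0 min, 5.23, 6.52 and 5.93 at 30 min and 6.25, 6.14 and 5.52 at 60 min. In WT it had 5.91, 5.01 and 5.51, then 4.68, 4.09 and 4.14, and then 4.22, 3.92 and 3.82. One *stn7* array at 0 min (replicate 3) stood more than 2 above the others, and at 30 and 60 min every *stn7* array was above every WT array. At 30 min the difference was 1.59 ± 0.47 and did not pass the threshold (limma adjusted p = 0.0912). The WT values at 30 and 60 min were close to those of the root markers and were not shown to be above background, so the size of this difference is uncertain. PDF1.4, a defensin-like peptide gene, had a difference at 30 min of 0.73 ± 0.27 (limma adjusted p = 0.182), with 5.35, 5.8 and 6.03 in *stn7* and 5.56, 4.79 and 4.65 in WT, so that the groups overlapped. AT1G54020, of the GDSL lipase family, had 4.38, 5.14 and 6.96 in *stn7* at 0 min, a wider spread than the 6.77, 6.13 and 6.34 of WT. Its difference at 30 min was 1.02 ± 0.45 (limma adjusted p = 0.275), with every *stn7* array above every WT array.

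Several members act in redox reactions. AT4G33420 encodes a class III peroxidase, an apoplastic enzyme type that uses hydrogen peroxide, and is described with the 30 min comparison. Its family members AT5G51890 and AT2G22420 had WT changes of -0.96 ± 0.1 and -0.81 ± 0.09. STR18, a sulfurtransferase, had a change of -0.06 ± 0.23 in *stn7* and -1.35 ± 0.23 in WT. AT1G14120, of the family of oxygenases that use 2-oxoglutarate and iron, had 7.17, 7.1 and 7.26 in *stn7* at 30 min, against 6.54, 6.69 and 6.03 in WT at 30 min. The groups did not overlap, and the difference of 0.75 ± 0.2 missed the threshold (limma adjusted p = 0.058). MSRB6, which reduces oxidised methionine in proteins, had 8.28, 8.11 and 8.13 in *stn7* at 30 min, against 7.79, 7.45 and 7.1 in WT at 30 min. Its difference was 0.73 ± 0.19 (limma adjusted p = 0.0649), again without overlap. Over the 7 members grouped here as redox enzymes or oxidative stress markers, the difference at 30 min ran from 0.04 to 0.79 with 7 of 7 above zero, and 1 passed the threshold, which 1.05% of all probe sets passed as higher in *stn7*. The difference was above zero for 6 of 7 members grouped as secreted or defence proteins, 5 of 6 transporters, 4 of 7 transcription genes and 4 of 8 genes of light signalling or protein turnover. It was above zero for 6 of 8 endomembrane genes, 5 of 5 RNA genes and 2 of 3 cell wall genes, and for 154 of all 213 members. These functional groups were put together after the values were seen.

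Among transporters were SWEET4 and SWEET1, of the family that carries sugars across membranes down their gradient. SWEET4 had 7.13, 7.41 and 7.74 in *stn7* at 0 min, 7.18, 6.97 and 6.64 at 30 min and 7.66, 7.3 and 7.37 at 60 min. In WT it had 7.79, 7.5 and 7.8 at 0 min, 6.84, 6.7 and 6.86 at 30 min and 6.8, 6.42 and 6.93 at 60 min. In *stn7* the 30 min mean was the lowest of the 3 times, while in WT the 30 and 60 min arrays overlapped and were all below 0 min. SWEET1 had 6.95, 7.52 and 7.84 in *stn7* at 0 min, against 8.05, 8.08 and 8.15 in WT at 0 min, and at 30 min the difference was -0.31 ± 0.17 (limma adjusted p = 0.406). AT2G26690, an NRT1/PTR family transporter (NPF6.2), had a change of -0.2 ± 0.15 in *stn7* and -0.83 ± 0.15 in WT at 60 min.

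Regulators of transcription and light signalling were present with moderate changes. TCP15, a TCP transcription factor of cell proliferation and growth, had 8.69, 8.96 and 9.09 in *stn7* at 0 min, 8.76, 8.77 and 8.64 at 30 min and 9.22, 8.97 and 8.61 at 60 min. In WT it had 9.47, 9.33 and 9.36, then 8.67, 8.25 and 8.74, and then 8.1, 8.45 and 8.28. The difference at 30 min was 0.17 ± 0.15 (limma adjusted p = 0.64), and the genotypes overlapped there. BZIP34, a bZIP factor, had a difference at 30 min of 0.42 ± 0.13 (limma adjusted p = 0.119), with all *stn7* arrays above all WT arrays. AT5G01200, a MYB-like gene, had a change of -0.28 ± 0.15 in *stn7* and -1.25 ± 0.15 in WT at 60 min, and its difference between genotypes at 30 min was 0.04 ± 0.15.

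FHL helps to carry the far-red photoreceptor phytochrome A into the nucleus. Its values were 6.1, 7.03 and 7.04 in *stn7* at 0 min, 6.37, 6.55 and 6.43 at 30 min and 7.15, 6.94 and 6.59 at 60 min. In WT it had 7.49, 6.99 and 7.31, then 6.62, 6.79 and 5.89, and then 6.12, 6.13 and 6.43. The genotypes overlapped at 0 and 30 min and not at 60 min, and the 30 min difference was 0.02 ± 0.24. AT5G41560, which encodes a partner of the light-signalling repressors DET1 and DDB1, had a difference of -0.08 ± 0.13 at 30 min. Genes linked to protein turnover included the BTB domain gene AT1G01640 (WT change -1.38 ± 0.21) and the F-box gene AT5G56380 (WT change -1.28 ± 0.13). AT5G56380 had 7.52, 7.52 and 7.57 in *stn7* at 30 min, against 7.14, 6.93 and 7.0 in WT at 30 min, a difference of 0.51 ± 0.13 that missed the threshold (limma adjusted p = 0.059).

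Members of the endomembrane system were AT1G48550 (VPS26 family), AT2G15240 (UNC-50 family), AT3G03180 (Got1/Sft2 family), AT1G26690 (p24 family), AT1G51160 (a subunit of the TRAPP tethering complex), the reticulon gene AT1G68230 and the genes AT5G38460 and AT2G44660. The last 2 encode glucosyltransferases of the ALG6/ALG8 family, which act on the sugar chain added to proteins in the endoplasmic reticulum. Over these 8 the *stn7* change ran from -0.16 to 0.53 and the WT change from -1.0 to -0.83. SCN1, which encodes a RhoGDI known to restrict root hair initiation, had a change of -0.25 ± 0.12 in *stn7* and -0.98 ± 0.12 in WT. REV7, a subunit of the DNA polymerase that copies past lesions, had a change of 0.02 ± 0.15 in *stn7* and -0.86 ± 0.15 in WT.

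The remaining large WT changes were those of 3 genes known here by locus alone. AT2G28660 had a change of -0.16 in *stn7* and -1.33 ± 0.18 in WT. AT3G51500 had 0.06 in *stn7* and -1.33 ± 0.2 in WT, and AT1G06980 had 0.12 in *stn7* and -1.24 ± 0.16 in WT. Of 119 genes in 9 lists of photosystem, antenna, thylakoid kinase, chlorophyll synthesis, clock, shade avoidance, low energy and chaperone genes, 23 had a named probe set and 0 were members. With 213 members among 22746 probe sets, a count of 0 in 23 does not set these lists apart. By the same annotation, 3 pairs of members are direct neighbours on a chromosome: AT1G20880 with AT1G20890, AT3G03170 with AT3G03180, and AT5G62950 with AT5G62960. The members of chromosomes 1 to 5 number 44, 22, 24, 22 and 36, between 0.874% and 1.27% of the named probe sets of each chromosome.

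In WT most of the 60 min change was already present at 30 min. The median change at 30 min was -0.74, and the median member had reached 78.8% of its 60 min change. At 30 min 33 members were at or past their 60 min level, and 17 had gone less than 50% of the way, with AT1G75770 the least at 12.7%. WT arrays at 30 min were all below those at 0 min for 192 members (90.1%), against 18.7% of all probe sets. The share was 88.1% among the 455 other probe sets with a WT change at or below -0.8, so it is not particular to the members. These values share the 0 min arrays with the rule. The VPS26 family gene AT1G48550 was among the late ones, with 7.95, 7.62 and 8.08 in WT at 0 min, 7.44, 7.51 and 7.58 at 30 min and 6.96, 6.86 and 6.93 at 60 min.

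At 30 min part of the members were lower than at 0 min in *stn7* too. In *stn7* at 30 min 53 members had a mean below their 0 min mean by 0.3 or more, 145 were within 0.3 and 15 were above by 0.3 or more. The shares of all probe sets in these ranges were not computed. The median *stn7* change at 30 min was -0.17 over the members and 0.01 over all probe sets. It was -0.52 over the 455 other probe sets with a WT change at or below -0.8. The 0.8 threshold was reached in *stn7* at 30 min by 0 members. For 29 members the *stn7* mean at 30 min was at least 0.3 below both the 0 and the 60 min means, which 605 of all probe sets (2.66%) also were. This count shares arrays with the rule, which kept only members whose 60 min mean in *stn7* was not low. Of these AT1G67050 had the lowest value at 30 min relative to 0 min, with changes of -0.72 from 0 to 30 min and 0.49 from 30 to 60 min. AT1G78260, which encodes an RNA-binding protein, had 7.54, 7.72 and 7.77 in *stn7* at 0 min, 7.64, 6.87 and 7.01 at 30 min and 8.43, 7.73 and 7.52 at 60 min, so that 1 of its arrays at 30 min was not below the 0 min arrays.

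**Figure D2:**
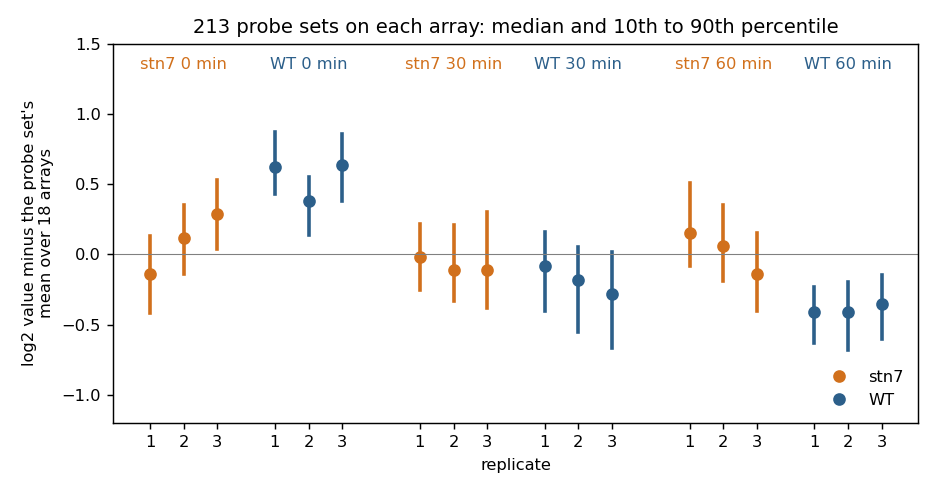
Each point is the median over the 213 members on 1 array, as the log2 value minus each probe set's own mean over all 18 arrays, and the line spans the 10th to 90th percentile. The *stn7* medians lie between -0.14 and 0.29 at all times, and the WT medians between 0.38 and 0.64 at 0 min and between -0.41 and -0.35 at 60 min.

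The genotypes also differed in where they started, though the rule favours probe sets with a high WT mean and a low *stn7* mean at 0 min. At 0 min *stn7* was lower than WT for 212 of 213 members, with a median difference of -0.46. At 60 min it was higher for 209, with a median of 0.42. The medians over all probe sets were -0.05 at 0 min and 0.02 at 60 min. Subtracting each member's WT change from its *stn7* counterpart gave a median of 0.85, and at the median 51.2% of it came from the 0 min gap. The 0 min gap was the larger part for 113 members and the 60 min gap for 100. All of these differences use arrays of the rule. At 16 members the 0 min means were within 0.2 of each other, among them AT4G33420, AT5G51890, THI2.1, AT5G39790, AT4G34480 and AT4G19160.

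At 30 min, in arrays the rule did not use, the median difference between *stn7* and WT was 0.1 over the members, against -0.01 over all probe sets, and 154 of 213 members were higher in *stn7*. Past the threshold (limma adjusted p under 0.05 over all 22746 probe sets) 8 members were higher in *stn7* and 0 lower, which is 3.76% of the members. Over all probe sets 1.05% were called higher and 0.73% lower, 404 in all (1.78%), 238 higher and 166 lower. Under quantile normalization that split was 168 to 200, and after setting all array medians equal it was 107 to 259. At an unadjusted p under 0.05, 36 members were higher (16.9%, against 8.76% of all probe sets) and 3 lower (1.41%, against 6.95%). All 3 *stn7* arrays were above all 3 WT arrays for 41 members (19.2%), against 11.2% of all probe sets, and below for 7 members, against 10.7%. For the other 205 members no difference passed the threshold, which does not show that the genotypes were alike. Members shared shifts of single arrays at 30 min. WT replicate 1 was the highest WT array for 115 members, against 27.2% of all probe sets. The counts of members are therefore not independent observations and rest on 3 arrays per genotype. The share of all probe sets higher in *stn7* at 30 min, whatever the p, was not computed.

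**Figure D3:**
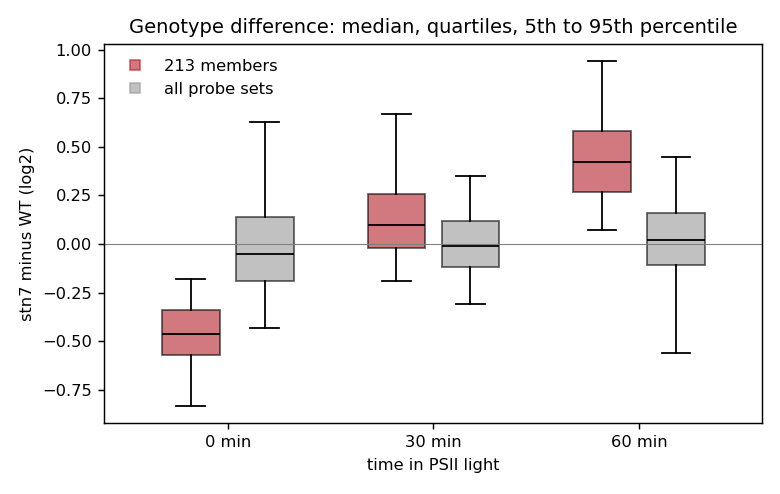
Difference of *stn7* minus WT (log2, y axis) at 0, 30 and 60 min for the 213 members (red) and all probe sets (grey); boxes are quartiles with the median, whiskers the 5th to 95th percentile. The members' median goes with time through -0.46, 0.1 and 0.42, and only the 30 min values are independent of the choice of members.

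The largest called difference was that of 251438_s_at, a probe set that the gene table gives to 2 genes and that is therefore not named. It had 8.92, 8.51 and 8.78 in *stn7* at 30 min, against 6.97, 6.84 and 6.98 in WT at 30 min. The difference was 1.81 ± 0.2, or 3.51-fold (limma adjusted p = 0.000201), higher in 3 of 3 arrays. In *stn7* it had been 7.28, 7.38 and 7.29 at 0 min and was 7.97, 7.8 and 7.68 at 60 min, so the *stn7* arrays were highest at 30 min while the WT arrays were lower there than at 0 min (8.05, 7.46 and 8.57). It passed the threshold without each of the 6 arrays at 30 min in turn.

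AT5G39790 encodes a chloroplast protein that helps to bring a starch synthase to the starch granule. It had 6.09, 6.23 and 5.9 in *stn7* at 30 min, against 5.16, 5.48 and 5.19 in WT at 30 min, a difference of 0.79 ± 0.15 (1.73-fold, limma adjusted p = 0.013). The genotypes overlapped at 0 min (6.02, 6.16 and 6.31 in *stn7*, 6.62, 5.87 and 6.28 in WT) and were apart at 30 and 60 min. It lost the call without *stn7* 30 min replicate 2 (limma adjusted p = 0.0654) and without WT 30 min replicate 1 (0.0541).

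AT4G33420, the peroxidase gene, had 7.32, 7.42 and 7.64 in *stn7* at 0 min, 7.22, 7.05 and 7.5 at 30 min and 7.79, 7.3 and 7.15 at 60 min. In WT it had 7.76, 7.43 and 7.61, then 6.46, 6.61 and 6.32, and then 5.94, 6.37 and 6.34. The *stn7* arrays overlapped at all 3 times, and the WT arrays at 0 min stood apart from the later ones. At 30 min it was higher in *stn7* by 0.79 ± 0.16 (1.73-fold, limma adjusted p = 0.0222), a call lost without *stn7* 30 min replicate 3 (limma adjusted p = 0.128), WT 30 min replicate 1 (0.0591) or WT 30 min replicate 3 (0.0694). The other peroxidase genes AT5G51890 and AT2G22420 had differences of 0.39 ± 0.1 (limma adjusted p = 0.0548) and 0.04 ± 0.09 (limma adjusted p = 0.897).

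AT4G34480 encodes a glycosyl hydrolase of family 17, whose enzymes cut glucans. It had 8.52, 8.0 and 8.49 in *stn7* at 30 min, against 7.78, 7.47 and 7.61 in WT at 30 min, a difference of 0.71 ± 0.16 (limma adjusted p = 0.033). AT1G33080, of the MATE efflux transporter family, had 6.6, 6.42 and 6.73 in *stn7* at 30 min, against 6.01, 5.97 and 5.95 in WT at 30 min, a difference of 0.61 ± 0.14 (limma adjusted p = 0.0319). For both genes the arrays of the genotypes did not overlap at 30 min. AT4G19160, of a transglutaminase family, was higher in *stn7* by 0.57 ± 0.14 (limma adjusted p = 0.0491), and 247735_at, which has no gene entry, by 0.58 ± 0.13 (limma adjusted p = 0.0268). AT4G34480, AT1G33080 and 247735_at each passed without 1 of the 6 arrays and missed the threshold without the other 5, and AT4G19160 missed it in all 6 cases, with adjusted p up to 0.228.

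AT2G07741 had 7.56, 7.42 and 7.48 in *stn7* at 30 min, against 6.75, 6.67 and 6.47 in WT at 30 min. The difference was 0.86 ± 0.18 (1.81-fold, limma adjusted p = 0.0251), and it missed the threshold when any 1 of the 6 arrays was left out (adjusted p 0.0537 to 0.103). In *stn7* it was 6.33, 6.76 and 7.34 at 0 min and 7.74, 7.51 and 7.47 at 60 min. This locus and the member AT2G07777 lie in the stretch of chromosome 2 that is a nuclear copy of mitochondrial DNA, so signal from the nuclear and the mitochondrial transcript cannot be told apart, although the annotation places both genes in the nucleus.

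**Figure D4:**
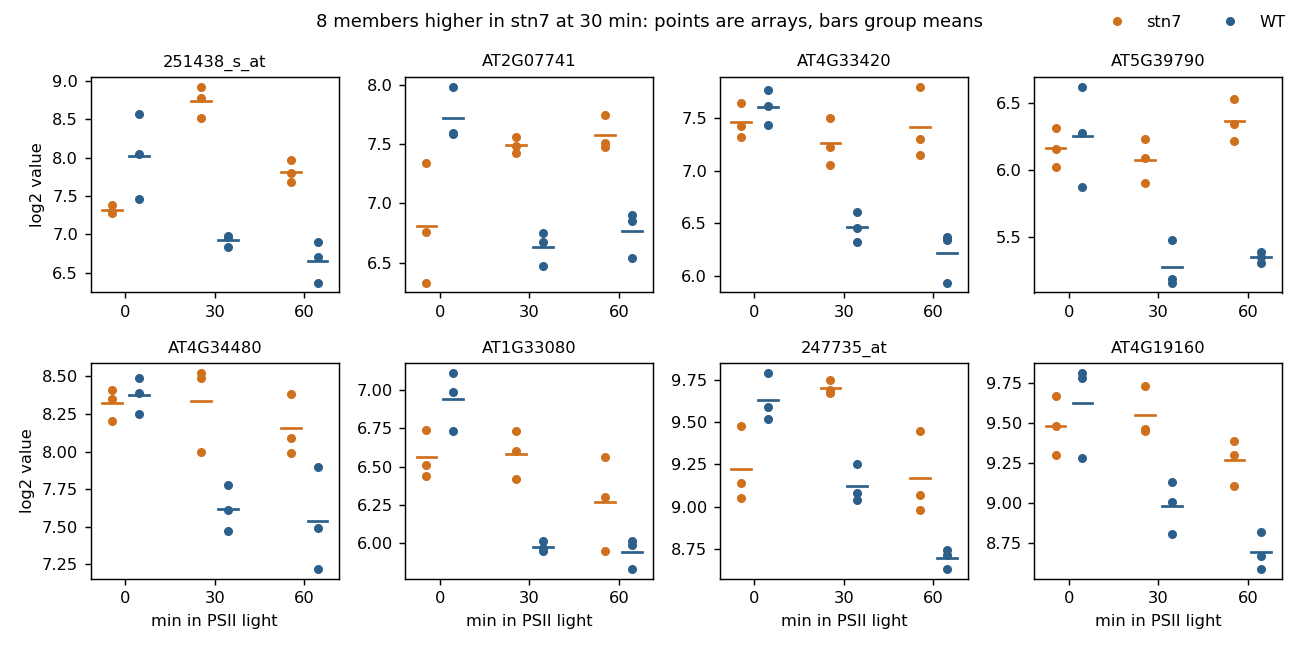
Log2 values of the 8 members called higher in *stn7* at 30 min, by time in PSII light; points are arrays and bars group means, *stn7* in orange and WT in blue. In each panel all 3 *stn7* points at 30 min lie above all 3 WT points.

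The 455 other probe sets with a WT change at or below -0.8, those with a *stn7* change at or below -0.3, were compared in the same way. Their median difference between *stn7* and WT at 30 min was -0.07, with 1 called higher and 14 called lower in *stn7*. Their median change was -0.75 in *stn7* and -1.11 in WT at 60 min, and -0.52 in *stn7* and -0.77 in WT at 30 min. They too started lower in *stn7*, with a median difference between *stn7* and WT of -0.3 at 0 min, against 0.02 at 60 min. These changes and the differences at 0 and 60 min share arrays with the rule. The difference between the 2 sets of probe sets was not tested.

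Replicate spread at 0 min bears on which probe sets met the rule. The SD of the *stn7* arrays at 0 min had a median of 0.24 over the members, against 0.14 over all probe sets, and that of the WT arrays at 0 min a median of 0.19, against 0.14. In *stn7* replicate 1 was the lowest of the 3 arrays at 0 min for 176 members and replicate 3 the highest for 150, and at 60 min replicate 3 was the lowest for 182. In WT replicate 2 was the lowest at 0 min for 177 members, and replicates 1 and 3 were the highest for 106 and 101. Over all probe sets at 0 min, *stn7* replicate 3 was the highest for 37.5%, and WT replicates 1 and 3 for 26.9% and 39.0%. The share over all probe sets was not computed for the lowest array. Arrays of a group also varied along a shared axis, taken as the leading component of each array's deviation from its group mean, which held 28% of that variance. Its scores were -25.3, 1.7 and 14.8 in *stn7* at 0 min, 28.8, 17.8 and -1.2 in *stn7* at 60 min, 43, 9.9 and 45.7 in WT at 0 min and -18.4, -16.5 and -9.7 in WT at 60 min. The members were lower on the arrays with lower scores within each of the groups WT 0 min, *stn7* 0 min and *stn7* 60 min. At 30 min the highest score also went with the highest median of the members, taken relative to each probe set's own mean. The WT scores there were -8.3, -13.9 and -22.2, with medians of -0.08, -0.18 and -0.28. The *stn7* scores were -1.1, -21.1 and -23.8, with medians of -0.02, -0.11 and -0.11. The 30 min comparison is therefore not free of this axis. With the axis as a covariate its median difference over the members was 0.107, against 0.1 without.

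The WT change at 60 min was larger in size than the whole range of the WT 0 min arrays for 208 members. The 5 exceptions were AT1G72060, AT3G45730, PDF1.4, 266799_at and 247718_at. Members were chosen for a large WT change, and both the change and the range use arrays of the rule. Nothing is therefore read from the count of 208, and its counterpart over all probe sets was not computed. AT1G72060, which encodes a peptidase inhibitor, had 6.32, 5.51 and 7.27 in WT at 0 min, against a WT change of -1.19 ± 0.4. 247718_at had 8.18, 6.1 and 6.45 in WT at 0 min, so that 1 array stood apart beside a change of -0.89 ± 0.41. At the other end AT1G78260 (7.91, 7.9 and 7.89), AT1G51160 (10.07, 10.03 and 10.08) and AT5G62960 (7.08, 7.02 and 7.04) had the closest WT arrays at 0 min among the members with 1 gene, and 35 members had an SD under 0.1 there.

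The rule was applied again without each of its 12 arrays in turn. Between 166 and 385 probe sets met it, and 81 of the 213 members did so every time. Without *stn7* 0 min replicate 1, 161 members were kept, without WT 0 min replicate 1, 166, and without WT 0 min replicate 3, 169. Without WT 0 min replicate 2, 210 members were kept and the total grew to 385. With a single WT array as the 0 min baseline, replicate 2 gave 101 probe sets with 83 of the members, replicate 1 gave 444 with 202 and replicate 3 gave 431 with 193. In all 71 members met the rule with each of these baselines, and 44 met it in both tests. Of the members called higher in *stn7*, AT5G39790, AT4G34480, AT4G19160 and AT1G33080 failed the rule at least once in each test. Their place among the members thus depends on single arrays. The other called members, 251438_s_at, AT4G33420, 247735_at and AT2G07741, met the rule throughout both tests. When the axis was a covariate, 19 probe sets met the rule, 12 of them members. The named ones were AT5G40020, AT4G33420, AT5G56380, AT5G51890, AT2G28410, AT1G31760 (a SWIB domain gene) and AT4G19430, and the others were 251438_s_at and 4 probe sets without an entry. Of the named ones, AT1G31760 and AT4G19430 had failed the rule at least once in each test above. AT5G40020 had failed it when single arrays were left out, and AT2G28410 with single WT baselines. The axis was estimated from the same arrays and its scores differ between the WT groups at 0 and 60 min, so that the covariate also takes up part of the time difference.

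**Figure D5:**
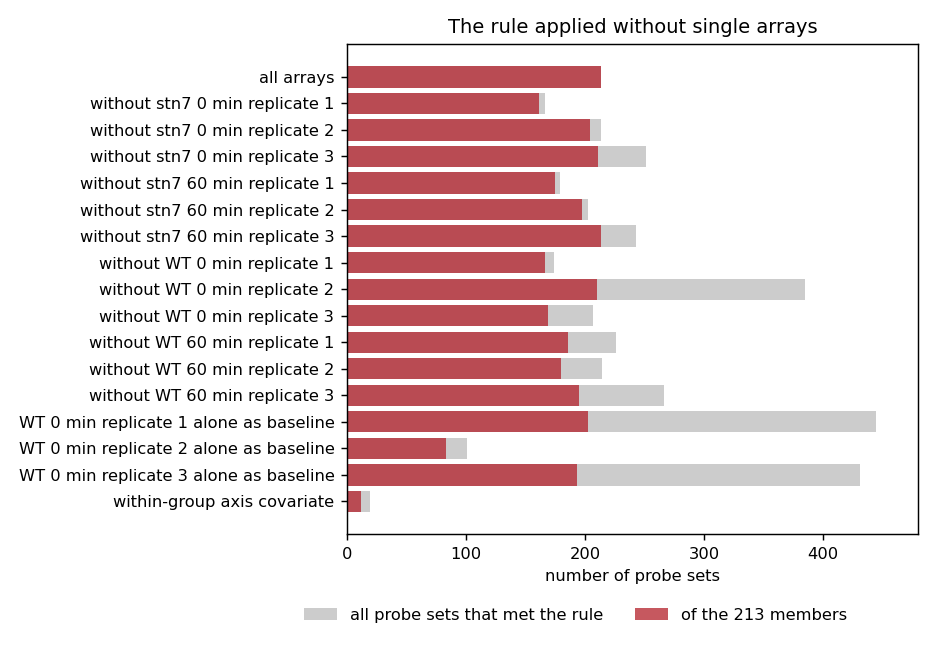
Number of probe sets that met the rule (x axis) with all arrays, without single arrays, with 1 WT 0 min array as the baseline and with the shared axis as a covariate; red is the part of the 213 members among them. Counts run from 19 with the covariate to 444 with WT 0 min replicate 1 as the baseline.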

How the data were processed

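The deposited log2 values were made by the authors with GCOS, Affymetrix Expression Console 1.1 and RMA, per the submitters' processing notes. The build and probe set definitions were not given in the sources used here. Labelling followed a 3' kit, per the labels' protocols. Of 22810 probe sets, 64 controls were removed and 22746 were tested with no filter and no further scaling. RMA includes a quantile step across arrays, so a shift of most transcripts in 1 direction can be hidden. Precision is limited by the number of arrays.

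The 18 arrays entered 1 limma fit (version 3.58.1, R 4.3.3) with a mean for each group (17.8 degrees of freedom, 5.8 from the prior), two-sided, with Benjamini-Hochberg adjustment over all probe sets and a threshold of 0.05. The spread behind the 30 min test is thus shared with arrays the rule used. The fit was run on simulated data whose noise was drawn independently for each probe set and array. Those data lacked the shared axis of the real arrays, so the run does not show how the fit behaves with it. Genes came from the supplied probe table and RefSeq (TAIR10.1). Python 3.11.15, pandas 2.3.3 and matplotlib 3.10.9 did the rest.

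The members and lists were chosen with earlier results of these data known. Named members were the 12 largest WT changes, those with a symbol, those called at 30 min, the 3 largest and 3 smallest SDs at 0 min in WT, and those next to the thresholds; others were chosen after their values were seen. Alternatives were other scalings, filters, variance models, array weights, a replicate block, an axis covariate, other thresholds and leaving out arrays. Promoter motifs were not analysed here.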

Additional observations from a re-analysis of the deposited data

How the results depend on the processing

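The median difference of the members at 30 min stayed above zero under every alternative tried, against 0.1 as reported. The median over all probe sets was not computed under the alternatives, so the members are not set against it here. Array medians at 30 min were 6.3, 6.27 and 6.31 in *stn7* and 6.21, 6.28 and 6.2 in WT. The members' median difference was smaller once these were made equal. That difference was 0.035 with each array centred on the same median, 0.053 with quantile normalization and 0.058 to 0.148 without single arrays. The 8 members called at 30 min became 4 with each array centred on the same median, 16 with array weights (15 higher and 1 lower in *stn7*), 21 with the axis covariate (20 and 1) and 1 with a minimum change of 1; without single arrays the count was 2 to 4. The number of all probe sets called, 404, became 772 with array weights, 194 in a fit to only the groups compared, 828 with the axis covariate and 36 with the minimum change, and 92 to 322 without single arrays. The cause of these shifts was not tested. The fits without single arrays and the fit to only the groups compared also rest on fewer arrays. Deviations from the group mean on same-numbered *stn7* and WT arrays of the same time had correlations from -0.36 to 0.23. With 3 arrays per group these cannot decide whether the numbers pair the samples, and pairing across times was not examined. The main fit used no pairing. With the replicate block 265 probe sets and 6 members were called; AT1G33080 and AT4G19160 were lost (adjusted p = 0.0513 and 0.0503). The block left the 213 members as they were. The number meeting the rule was 488 after median centring, 59 with a WT threshold of -1, 75 with a *stn7* threshold of 0 and 19 with the axis covariate. It was 444, 101 and 431 with WT 0 min replicates 1, 2 and 3 as the baseline, and 166 to 385 without single arrays. Among the named members at 30 min, 42 calls were lost and 14 gained over the alternatives, with 476 cases on the same side of the threshold, and none changed direction with a call. Only the 8 members called as reported could lose a call. The 476 include cases of members not called in either fit, so they do not measure how stable the calls were. For 75 members the WT 60 min mean was under the lowest array median of 6.1; how many of these are near background was not measured.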
